A study of Mus musculus with 16 samples.

Results

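The Trim genes encode tripartite motif proteins, and their RNA was measured here in hippocampal microglia, immune cells that live in the brain, of aged and young mice. Members were the rows of the expression table whose symbol begins with Trim followed by a digit. They numbered 66 of 24015 rows. Of these, 37 were tested for a difference between the ages, having 10 or more normalized counts in 6 or more of the 12 samples, and 29 were not. The samples comprised 6 from aged mice of 20 months and 6 from young mice of 3 months, with no other treatment or allele in the labels. The strain label was C57BL/6 for all samples except aged 5 and aged 6, whose labels differ in the last digit, and whether that is an entry error was not settled. Whether each sample came from a single mouse or from pooled mice is not stated in the labels, so the p-values reflect only how far these samples spread. RNA came from sorted live CD11b+CD45lo cells, and the deposited values behave as a gene's reads divided by a size factor of the library.

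Most tripartite motif proteins are ubiquitin ligases. They carry a RING finger that recruits a ubiquitin-conjugating enzyme, then B-box zinc fingers and a coiled coil through which they assemble, and a C-terminal domain that picks the target. Many are induced by interferon, and act on the sensors and adaptors of virus detection or on viral proteins. Others work away from immunity, as corepressors of transcription or as regulators of the cytoskeleton, of muscle and of neurons. Microglia respond to interferon, and the interferon-inducible members are compared below with the rest. The inducible list held Trim5, Trim6, Trim12a, Trim12c, Trim14, Trim21, Trim25, Trim26, Trim30a, Trim30b, Trim30c, Trim30d, Trim34a, Trim34b and Trim56. Trim5 and Trim30c were not analysed here, which left 13 inducible genes, 11 of them tested, beside 53 other Trim genes, 26 of them tested.

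The factors that carry the interferon signal bind DNA through repeats of GAAA. The letters GAAANNGAAA, on either strand, were therefore searched in windows running from 250 bases before to 50 bases after gene starts, taken from RefSeq on GRCm38.p6. A window existed for 50 of the 66 members. The letters were present at 7 of the 12 inducible genes with a window (58.3%) and at 1 of the 38 other Trim genes (2.63%), Trim2. Over all 27025 genes with a window the share was 3.99%. The stretches that hold the match are shown for those 7 inducible genes. Each is written 5′ to 3′ on the strand of the gene, and capitals mark the match to GAAANNGAAA or its reverse complement.
Trim30a, chr7:104465194-104465253, minus strand: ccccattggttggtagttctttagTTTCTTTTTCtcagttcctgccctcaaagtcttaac
Trim30d, chr7:104507850-104507909, minus strand: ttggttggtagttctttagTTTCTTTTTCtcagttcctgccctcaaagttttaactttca
Trim12c, chr7:104353350-104353409, minus strand: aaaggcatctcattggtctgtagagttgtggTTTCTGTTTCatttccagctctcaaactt
Trim26, chr17:36836961-36837020, plus strand: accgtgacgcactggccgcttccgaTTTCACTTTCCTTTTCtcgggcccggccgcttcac
Trim21, chr7:102565447-102565476, minus strand: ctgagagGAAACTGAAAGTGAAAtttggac
Trim34a, chr7:104244457-104244486, plus strand: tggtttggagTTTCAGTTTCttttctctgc
Trim12a, chr7:104315466-104315495, minus strand: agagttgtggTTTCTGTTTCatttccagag

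The stretches of Trim30a and Trim30d share an unbroken run of 49 bases. Set against each other with an offset of 5 bases, they differ at 1 of 55 positions. The stretch of Trim12a, but for its last bases, also recurs within that of Trim12c. The 7 inducible genes with a match are therefore not 7 unrelated promoters. Trim26 and Trim21 each hold 2 overlapping matches, printed as 1 run of capitals. The match of Trim26 lies 160 to 145 bases before the start and the printed match of Trim30a 36 to 27 bases before it. Those of Trim12a and Trim34a lie 11 to 20 bases into the transcript. Trim30a holds a further match, not printed, 3 to 12 bases into the transcript from another annotated start. A match is a run of letters and not evidence that a factor binds there. Trim25, Trim30b and Trim56, and the untested Trim6 and Trim34b, are inducible members whose windows hold no match, and no window was found for Trim14.

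The libraries resembled microglia in their defining markers. Tmem119 had 196778 to 235026 normalized counts in aged and 211774 to 242122 in young samples, and the summed level of 8 microglial markers was 1501110 to 1690910 in aged and 1648270 to 1892370 in young samples. Of those 8 genes 1 was called, Fcrls, with a log2 difference of -0.47 and an adjusted p of 3.8e-04. The astrocyte marker Aldh1l1 rose in aged samples (2.82-fold, adjusted p 0.041), as 1 of 4 tested astrocyte markers. It was low, at 30.2 to 91.7 normalized counts in aged and 9.62 to 30.1 in young samples. All 4 differences were positive, but Slc1a3, by far the most abundant, had a log2 difference of 0.06. The 6 astrocyte markers summed to 5601 to 7576 in aged and 5471 to 7014 in young samples. Cd79b, listed as a B cell marker, fell (log2 difference -0.36, adjusted p 0.038). It had 732 to 921 normalized counts in aged and 975 to 1223 in young samples. Which cells its RNA came from was not tested. The 5 choroid plexus markers summed to 449 to 3528 normalized counts in aged and 265 to 1297 in young samples, with positive log2 differences in all 5, a median of 1.21 and 0 called. The other B cell markers and those of T cells were near 0. What these markers contribute to the Trim values was not tested. Normalized totals were 26.2 to 27.3 M in aged and 26.4 to 27.9 M in young samples. Reads could be recovered for the 8 samples with a single library and were 24.2 to 31.6 M in aged and 11.4 to 47.3 M in young samples, with the lowest depth in young 1. In sorted bulk RNA, fewer cells of a type and less RNA per cell cannot be told apart.

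No Trim gene passed the adjusted threshold of 0.05 in the comparison of aged with young microglia. With limma on log2(normalized count + 1), the counts were 0 of 37 higher and 0 of 37 lower in aged samples, where 1.27% of all 11579 tested genes were called higher and 0.458% lower. The smallest adjusted p among the members was 0.146, shared by Trim47 and Trim14. At an unadjusted p below 0.05 there were 6 members, namely Trim14, Trim25 and Trim12c with positive differences and Trim47, Trim67 and Trim23 with negative ones. That is 6 of 37 beside 10.8% of all tested genes. In no member did the 6 aged values lie wholly apart from the 6 young values, while 1.87% of all tested genes showed such a gap. On the recovered reads of the 8 single-library samples, edgeR's quasi-likelihood test called 0 of 38 members (0.772% of all genes) and had 5 members with an unadjusted p below 0.05. DESeq2 called 1 of 38 on those reads, Trim14, against 2.01% of all genes.

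The median standard error of the log2 difference was 0.11 for the tested members and 0.12 for all tested genes. For 27 of 37 members the 95% interval stayed within a 1.5-fold difference in either direction, and for 34 it stayed within 2-fold, beside 8598 and 10253 of all 11579 tested genes. The median log2 difference was 0.04 over the 37 members and 0.00 over all tested genes. Of the members 22 of 37 had a positive difference, and of all tested genes 5850 of 11579.

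**Figure D1:**
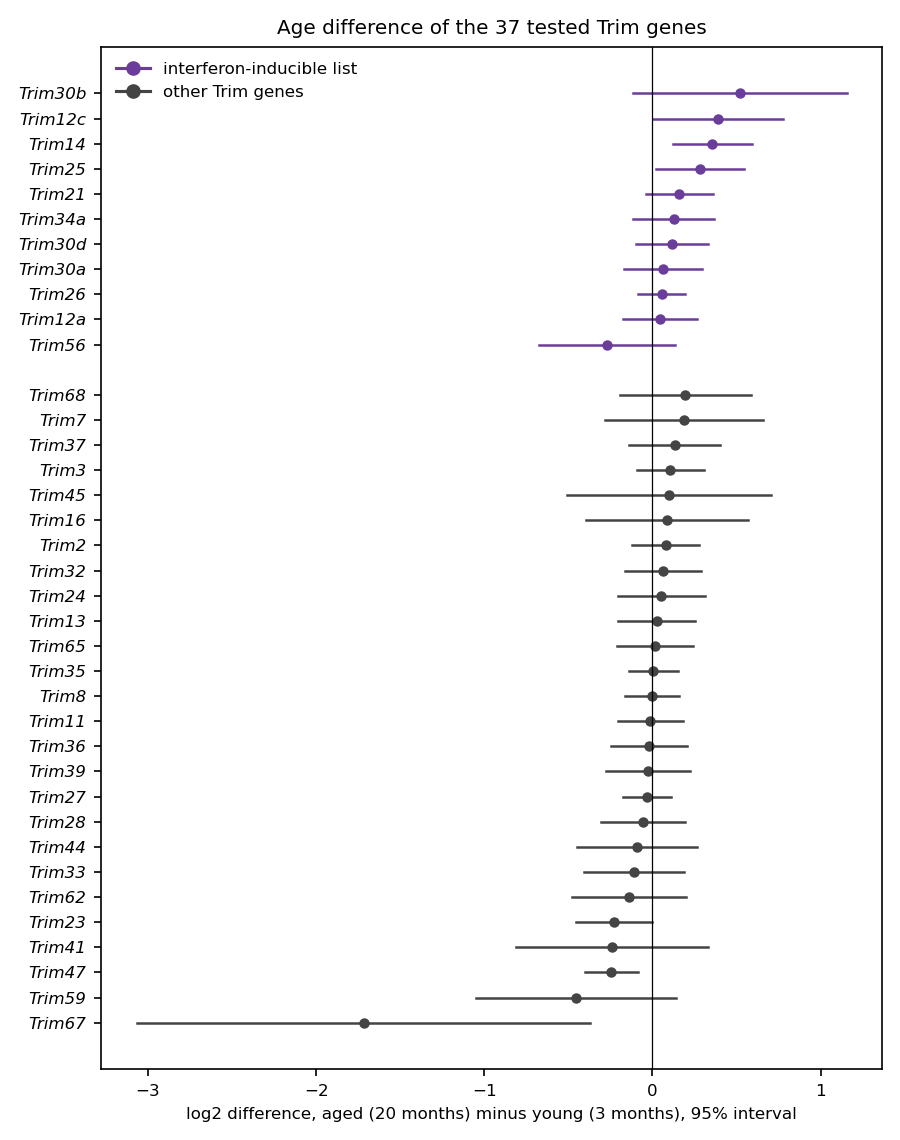
Age difference of each tested Trim gene as the log2 difference of aged minus young with its 95% interval from limma (n = 6 per age), with the inducible list above the other members. The inducible genes run from 0.52 for Trim30b to -0.27 for Trim56, and Trim67 lies farthest from 0 with the widest interval.

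Trim25, Trim21 and Trim30a, the inducible genes that lead the contrast, had log2 differences of 0.28, 0.16 and 0.06. Trim25 encodes the ligase that attaches ubiquitin to the RNA sensor RIG-I and that assists the antiviral zinc finger protein ZAP. Its normalized counts were 798, 993 and 1251 (lowest, median and highest) in aged samples, against 658, 785 and 1000 in young samples. All 6 aged samples lay above the young median, aged 4 and aged 1 lay above every young sample, and the ages overlapped. The log2 difference was 0.28 ± 0.13 (SE, n = 6 each), with an unadjusted p of 0.037 and an adjusted p of 0.40 by limma.

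Trim21 encodes a receptor for antibodies in the cytosol that sends antibody-coated virus to the proteasome. Its lowest, median and highest normalized counts were 1040, 1117 and 1414 in aged samples, against 951, 1050 and 1213 in young samples. Aged 5 and aged 1 stood above all young samples, and the remaining 4 aged samples fell inside the young range. Its log2 difference was 0.16 with a 95% interval of -0.04 to 0.36 and an adjusted p of 0.63.

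Trim30a, which in mouse restrains signalling from Toll-like receptors, showed the least difference of the 3. It had 1259, 1605 and 2049 normalized counts (lowest, median and highest) in aged samples, against 1288, 1509 and 1778 in young samples. Aged 4 was the highest and aged 2 the lowest of all 12 samples, so that the young range lay inside the aged range. The difference between the ages was 0.06 on the log2 scale, with a 95% interval of -0.17 to 0.29, which lies within 1.5-fold, and the adjusted p was 0.92. Without aged 4 the difference was -0.01.

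Trim14 had the smallest p of the inducible list. It lacks a RING finger and serves as an adaptor at the mitochondrial protein MAVS and as a stabiliser of the DNA sensor cGAS. Its values were 1834, 2132 and 2830 normalized counts (lowest, median and highest) in aged samples, against 1413, 1738 and 1945 in young samples. All aged samples exceeded the young median and 4 exceeded the young maximum, led by aged 5 at 2830 and aged 4 at 2579, while aged 3 and aged 1 lay among the young values. This gave a log2 difference of 0.36 ± 0.11 (SE, n = 6 each), a 1.28-fold difference with an adjusted p of 0.146. On the 8 single-library samples, where aged 3, aged 6, young 2 and young 4 do not enter, DESeq2 gave 0.50 with an adjusted p of 0.031 and edgeR gave 0.50 with an adjusted p of 0.15.

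The Trim14 value carries a limit of annotation. In GENCODE vM21 on GRCm38, Trim14 lies at chr4:46493781-46536141 on the minus strand, and Nans, the gene of a sialic acid synthase, lies on the opposite strand and covers 31.3% of its exonic bases. The libraries do not mark strand, so reads from the shared bases cannot be told apart. Nans itself, looked at after the Trim14 values were seen, had 560 to 852 normalized counts in aged and 565 to 736 in young samples, with a log2 difference of 0.12 and an adjusted p of 0.81. The part of shared reads in the Trim14 values was not tested.

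**Figure D2:**
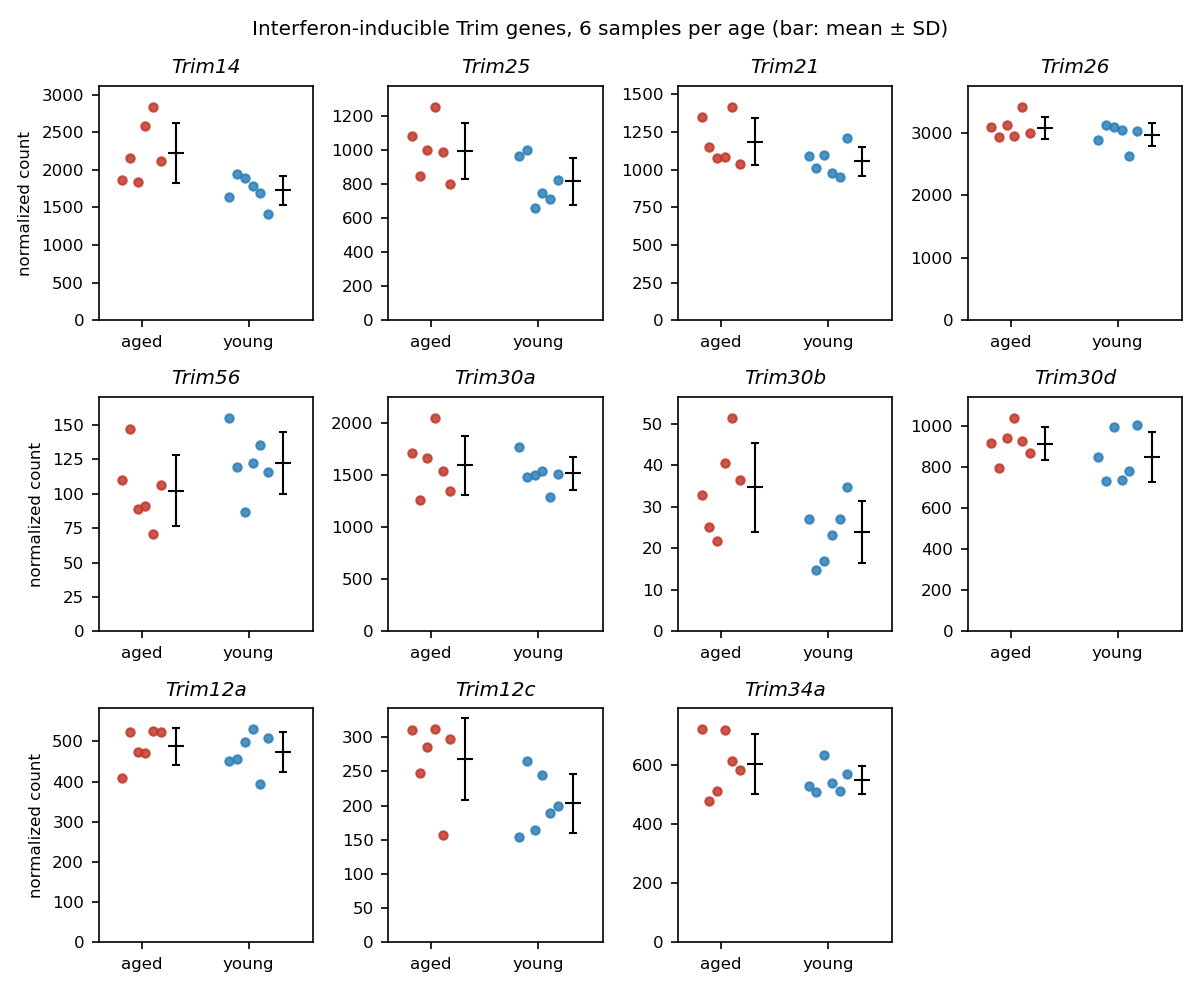
Normalized count of the 11 tested interferon-inducible Trim genes in each sample (points), aged at left and young at right, with mean ± SD beside each group (n = 6). The ages overlap in every panel, and Trim14 has 4 aged samples above the highest young one.

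The Trim5, Trim6, Trim12, Trim30 and Trim34 genes sit together on chromosome 7, and their mouse copies arose by duplication. Trim12a and Trim12c are relatives of Trim5, whose primate form restricts retroviruses. Trim12c had 157, 292 and 312 normalized counts (lowest, median and highest) in aged samples, against 155, 195 and 265 in young samples. Aged 5 was near the young minimum, aged 2 lay within the young range and the other 4 aged samples lay above it. The log2 difference was 0.39 ± 0.18 (SE), with an adjusted p of 0.45. Trim12a ranged from 408 to 526 in aged and from 394 to 530 in young samples, a log2 difference of 0.04.

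Trim30d and Trim30b are the close relatives of Trim30a. Trim30d had 795, 919 and 1035 normalized counts (lowest, median and highest) in aged samples, against 732, 811 and 1000 in young samples, with a log2 difference of 0.11 and an adjusted p of 0.81. Young 3 and young 6 were close to the aged maximum and the other 4 young samples were between 732 and 845. Trim30b was low, with 21.9, 34.7 and 51.3 normalized counts in aged samples, against 14.7, 25.1 and 34.7 in young samples. Its log2 difference of 0.52 was the greatest of the tested members, but the 95% interval ran from -0.12 to 1.15. Aged 5, aged 4 and aged 6 gave its highest values.

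Trim34a ranged from 478 to 720 normalized counts in aged and from 508 to 635 in young samples, with a log2 difference of 0.13 and an adjusted p of 0.81. Aged 1 and aged 4 were above all young samples and aged 2 was below them. Its copy Trim34b did not reach the minimum for a test and had 5.38 to 11.2 normalized counts in aged and 0 to 7.64 in young samples. Trim6 was also below the minimum, at 0 to 4.42 in aged and 0 to 5.87 in young samples. Some reads may be hard to place at these genes. Of the 75-base stretches of Trim34a transcripts, 48.6% also occur in transcripts of another gene, on either strand, and 29.5% occur in Trim34b. Gm47248, an antisense gene on the opposite strand, covers 23.5% of the exonic bases of Trim34a. The share of stretches found elsewhere is 42.5% for Trim34b, 17.3% for Trim12c, 5.58% for Trim12a, 5.41% for Trim30d, 4.98% for Trim30a and 0.390% for Trim30b. Counts of Trim34a, Trim34b and Trim12c are therefore uncertain. Reads were 150 bases, longer than these stretches, so the shares do not give how many reads could not be placed.

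The last 2 inducible members lie elsewhere in the genome. Trim26, a ligase reported to act on the transcription factor IRF3, ranged from 2936 to 3409 normalized counts in aged and from 2631 to 3124 in young samples. Its log2 difference was 0.06 with a 95% interval of -0.09 to 0.20. Trim56, a ligase linked to the DNA sensing adaptor STING, was the only tested inducible gene with a negative difference. It had 70.8, 98.5 and 147 normalized counts in aged samples, against 86.7, 121 and 155 in young samples, a log2 difference of -0.27 with an adjusted p of 0.73.

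Seen as a list, 10 of the 11 tested inducible genes had a positive log2 difference, with a median of 0.13, beside 12 of 26 and a median of -0.01 for the other tested Trim genes. Over all tested genes the median was 0.00. The sign was not stable for Trim12a, negative without young 5 or without both aged 5 and aged 6, and for Trim30a, negative without aged 4. The median of Trim21, Trim25 and Trim30a alone was 0.16. The gap between the medians of inducible and other members was 0.14 and ranged from 0.09 without aged 4 to 0.19 without aged 3 over the alternatives tried. For Trim21, Trim25 and Trim30a against the other members the gap was 0.17, with a range of 0.11 to 0.22. These medians are descriptions with no test, and several inducible genes share sequence or neighbours.

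The aged samples did not all contribute alike. Of the 11 tested inducible genes, aged 5 was the highest aged sample in 5 and aged 4 in 4, while aged 2 was the lowest in 4. This order was not particular to the list. Aged 5 was also the highest aged sample in other Trim genes, among them Trim3, Trim23, Trim36 and Trim44, and aged 4 in Trim8. Such an order was not counted over all tested genes. The highest of all 12 samples was an aged sample in 9 of the 11 genes. The median SD of log2 values was 0.24 among aged and 0.17 among young samples for these genes, beside 0.22 and 0.19 for all tested genes. The summed level of the inducible genes was 10564 to 12594 normalized counts in aged and 9316 to 10672 in young samples, and that of the other Trim genes was 38571 to 40240 in aged and 37612 to 42471 in young samples.

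Markers of other myeloid cells, which also express interferon-inducible genes, were low. The 6 monocyte markers summed to 130 to 162 normalized counts in aged and 63.9 to 130 in young samples, with positive differences in 4 of 4 tested genes, a median log2 difference of 0.74 and 0 called. Ccr2, their chemokine receptor, had 49.0 to 126 in aged and 36.8 to 96.0 in young samples. The 6 markers of border macrophages summed to 179 to 671 in aged and 210 to 379 in young samples, with positive differences in 4 of 5 tested genes, a median of 0.50 and 0 called. F13a1 and Cd163 among them had the largest differences, 1.86 and 1.80, with adjusted p-values of 0.17 and 0.44. Cbr2 and Pf4 had 0.50 and 0.47. Mrc1, the marker of this list with the highest mean, went the other way at -0.27. The 5 neutrophil markers reported here summed to 7.18 to 148 in aged and 3.96 to 29.8 in young samples, and none reached the minimum for a test. Aged 4, the sample highest for Usp18 and Isg15, had 43.9 for S100a8 and 45.0 for S100a9. No other sample exceeded 11.4 and 8.37 for these genes. The sort kept cells low for CD45, a gate that leaves out cells with high CD45 such as most monocytes and border macrophages. The part of any of these cells, neutrophils included, in the values of the inducible Trim genes was not tested.

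Among the other Trim genes, Trim47 had the smallest p. It encodes a ligase whose human gene lies at a locus associated with white matter lesions. In aged samples the lowest, median and highest normalized counts were 3534, 3589 and 4594, against 3957, 4495 and 4701 in young samples. Of the aged samples 5 lay close together between 3534 and 3637, below the lowest young sample, and aged 6 stood at 4594 among the young values. The log2 difference was -0.24 ± 0.08 (SE, n = 6 each), an adjusted p of 0.146 by limma. Without aged 6, limma gave -0.30 with an adjusted p of 0.018, and without both aged 5 and aged 6, whose strain labels differ, it gave -0.31 with an adjusted p of 0.025. On the 8 samples with a single library, which also omit aged 6, Trim47 was not called. There limma gave -0.29 with an adjusted p of 0.20, edgeR -0.29 with 0.20 and DESeq2 -0.29 with 0.062. Trim47 and its neighbour Trim65 overlap on the same strand over 8.23% of the exonic bases of Trim47.

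Trim67, a relative of Trim9 that acts in neurons at the netrin receptor, had the greatest negative difference at a very low level. Its values were 0, 8.86 and 26.0 normalized counts (lowest, median and highest) in aged samples, against 12.3, 26.2 and 31.7 in young samples. Aged 2 was at 0, aged 3 and aged 4 were below 5, and aged 6, at 26.0, lay just under the young median. On the log2 scale the difference was -1.72 with a 95% interval of -3.07 to -0.37 and an adjusted p of 0.28. It was -1.14 without aged 2, -1.14 with a pseudocount of 5 and -2.43 without aged 5 and aged 6, with adjusted p-values of 0.41, 0.23 and 0.071, and over all alternatives the adjusted p was 0.071 to 0.52. The 7 neuronal markers summed to 22.0 to 69.9 normalized counts in aged and 31.7 to 112 in young samples. Of these, Rbfox3 and Snap25 were tested, with log2 differences of -0.81 and -0.66 and neither called, and the other 5 were at 0 in at least 1 sample of each age. Their part in the Trim67 values was not tested.

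Trim23, a ligase that also carries a small GTPase domain and acts in antiviral autophagy, had 446, 536 and 611 normalized counts in aged samples, against 492, 640 and 700 in young samples. All 6 aged samples lay below the young median, and young 4, at 492, lay within the aged range. This amounted to a log2 difference of -0.23 ± 0.11 (SE), with an adjusted p of 0.44. Trim59, anchored in membranes, ranged from 24.6 to 73.9 in aged and from 52.0 to 96.5 in young samples, with a log2 difference of -0.45 and an adjusted p of 0.66. Trim3, a brain-enriched member with an NHL domain, and Trim68, known as a coactivator of the androgen receptor, had log2 differences of 0.11 and 0.20 with adjusted p-values of 0.81 and 0.82.

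**Figure D3:**
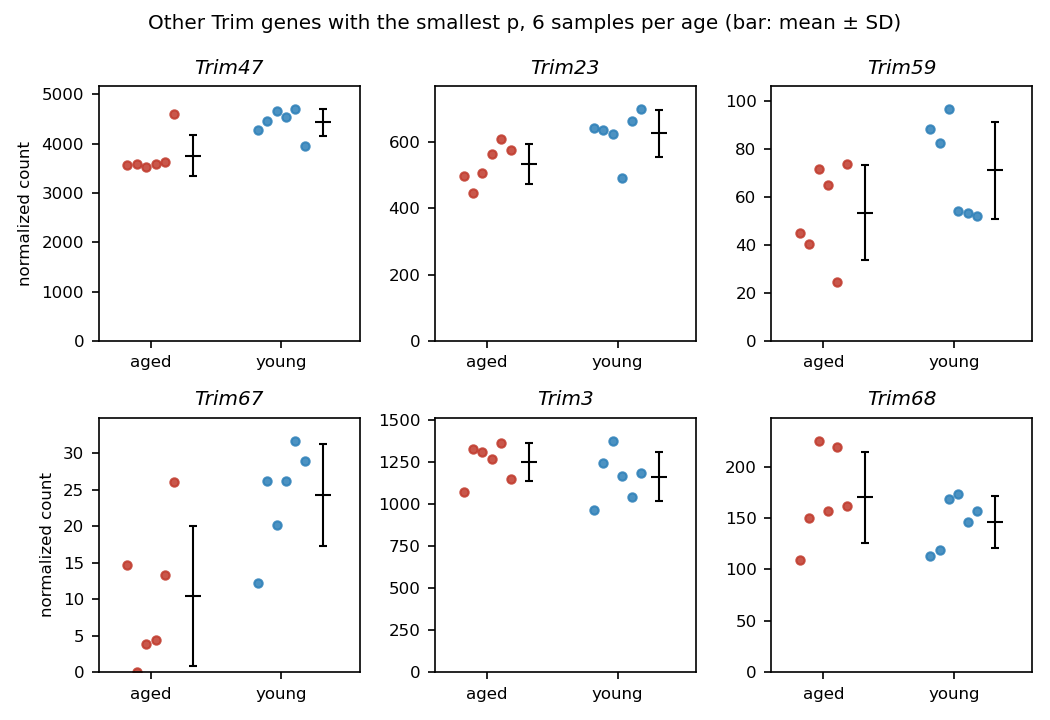
Normalized count of the 6 other Trim genes with the smallest p in each sample (points), aged at left and young at right, with mean ± SD beside each group (n = 6). In Trim47, 5 aged samples lie below all young samples and aged 6 lies among them.

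The most abundant Trim genes in microglia were not the inducible ones. On normalized counts per kb of annotated exon, averaged over the 12 samples, Trim8 was first at 2744, followed by Trim47 at 1497, Trim35 at 1130, Trim28 at 812, Trim36 at 560 and Trim27 at 553. The first inducible genes were Trim14 in place 7 at 456 and Trim26 in place 8 at 441, and Trim67 was last of the 37 at 1.98. This order depends on the exon length used, which takes all annotated exons of a gene. Before division by length, Trim26 had a mean of 3027 normalized counts, above Trim36 at 2762 and Trim14 at 1978. Neighbours in this order such as Trim36 and Trim27, or Trim14 and Trim26, overlapped in their ranges over samples. The range of Trim8 overlapped with no other member in either age.

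Trim8 is a ligase that promotes NF-kappa-B signalling and interferes with the cytokine inhibitor SOCS1. Its normalized counts were 9198, 10162 and 10890 (lowest, median and highest) in aged samples, against 8186, 10623 and 11062 in young samples. The young range enclosed the aged range, and the 95% interval of the log2 difference was -0.16 to 0.16. Trim28, the corepressor that KRAB zinc finger proteins recruit to silence transposable elements, ranged from 2615 to 3847 in aged and from 2908 to 4036 in young samples. Its 95% interval was -0.31 to 0.19. Trim35 had an interval of -0.14 to 0.15, Trim27, which acts in endosomal sorting, had -0.18 to 0.11, and Trim36, a cytoskeletal member known from sperm, had -0.25 to 0.20. The interval of each of these 5 genes lay within 1.5-fold in either direction.

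**Figure D4:**
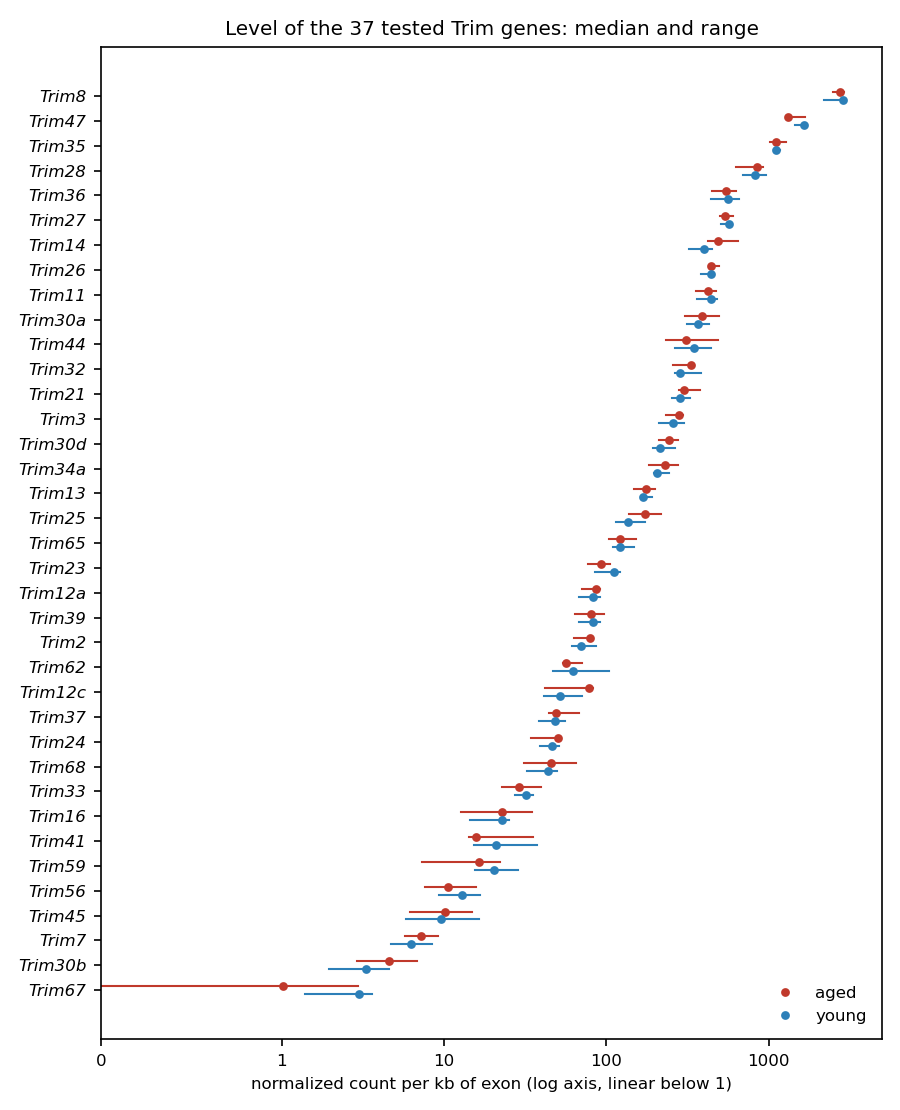
Normalized count per kb of exon of the 37 tested Trim genes on a log axis that is linear below 1, ordered by mean, with the median (point) and range (line) of 6 aged samples above those of 6 young samples. Trim8 is highest in both ages and Trim67 lowest, with aged 2 at 0.

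By C-terminal domain, 0 members were called in any class, beside 1.27% of all tested genes called higher and 0.458% called lower. With shares this low and classes this small, the 0 does not set any class apart. The class with a SPRY domain, which holds most inducible genes, had 21 of 37 genes tested and a median log2 difference of 0.06. Of the class with PHD and bromodomains, which comprises transcriptional regulators, 3 of 4 were tested, and Trim24, Trim28 and Trim33 had differences of 0.05, -0.06 and -0.11. In the class with an NHL domain, Trim2, Trim3 and Trim32 had differences of 0.08, 0.11 and 0.06, and Trim71, a regulator of stem cell messages, was at 0 throughout. The membrane-anchored pair Trim13 and Trim59 had 0.02 and -0.45. Of the class with a COS box and fibronectin repeat, Trim36 and Trim67 were tested, and the neuronal gene Trim9 had 0 to 6.19 normalized counts in aged and 0 to 9.78 in young samples.

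Of the 29 members below the minimum, 9 were at 0 in every sample, namely Trim29, Trim31, Trim40, Trim42, Trim52, Trim54, Trim60, Trim61 and Trim71. The muscle ring finger class of Trim54, Trim55 and Trim63, with Trim42, summed to 0 to 4.02 normalized counts in aged and 0 to 10.3 in young samples. The erythroid members Trim10 and Trim58 reached no more than 3.91 in any sample, and the globin genes were at 0 in all 12. The highest single value among untested members was 24.1 for Trim15 in aged 2.

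The genes around the inducible Trim proteins showed 3 calls. Of 16 tested genes of interferon signalling, 1 rose in aged samples, Usp18, and of 11 tested genes of the RIG-I and ZAP pathway 2 rose, Isg15 and Ube2l6, while none in either list fell. Over all tested genes 1.27% were called higher. Usp18, which removes ISG15 and dampens the interferon receptor, had 287, 372 and 783 normalized counts (lowest, median and highest) in aged samples, against 152, 214 and 368 in young samples, a log2 difference of 1.02 ± 0.25 (SE) with an adjusted p of 0.046. Young 3, at 368, lay among the aged values, and the other 5 young samples were below all aged ones. Usp18 and Isg15 were highest in aged 4 and Ube2l6 in aged 5. These samples also led most inducible Trim genes, but aged 5 led several other Trim genes as well, and a link was not tested.

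ISG15 is a ubiquitin-like modifier, and Ube2l6 conjugates it in the same kind of relay as ubiquitin, with Trim25 among the ligases known in human cells. Isg15 had 86.5, 118 and 184 normalized counts in aged samples, against 52.7, 73.8 and 81.5 in young samples, with no overlap, a log2 difference of 0.84 ± 0.20 and an adjusted p of 0.044. Ube2l6 had 621, 698 and 851 in aged samples, against 508, 546 and 605 in young samples, also with no overlap, a difference of 0.38 ± 0.09 and an adjusted p of 0.046. These calls were close to the threshold. The number of the 3 that held was 0 without any 1 of aged 2, aged 4, aged 5, young 1, young 2, young 4, young 5 or young 6, and it was 1 without aged 3.

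The sensor and effector partners of Trim25 did not pass. Ddx58, the gene of RIG-I, had a log2 difference of 0.20 (adjusted p 0.62), Zc3hav1, the gene of ZAP, 0.17 (adjusted p 0.66), and Mavs, their mitochondrial adaptor, 0.05 (adjusted p 0.89). Irf7, a master factor of interferon production, had 196, 333 and 702 normalized counts in aged samples, against 143, 208 and 248 in young samples, with a difference of 0.78 and an adjusted p of 0.29. Pml, a tripartite motif gene under another symbol that organises nuclear bodies, had 785, 1068 and 1217 in aged samples, against 732, 848 and 921 in young samples, with a difference of 0.29 and an adjusted p of 0.26.

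Partners of members outside immunity also gave no calls. Of 9 genes that work with Trim28 in silencing, 0 were called, with a median log2 difference of -0.04, and Setdb1, the histone methyltransferase Trim28 recruits, had 0.01 with a 95% interval of -0.17 to 0.19. Of 9 ubiquitin-conjugating enzymes and cofactors that serve RING ligases, 0 were called, and all 9 intervals lay within 1.5-fold. The shares of all tested genes called higher (1.27%) and lower (0.458%) are the background for both lists.

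**Figure D5:**
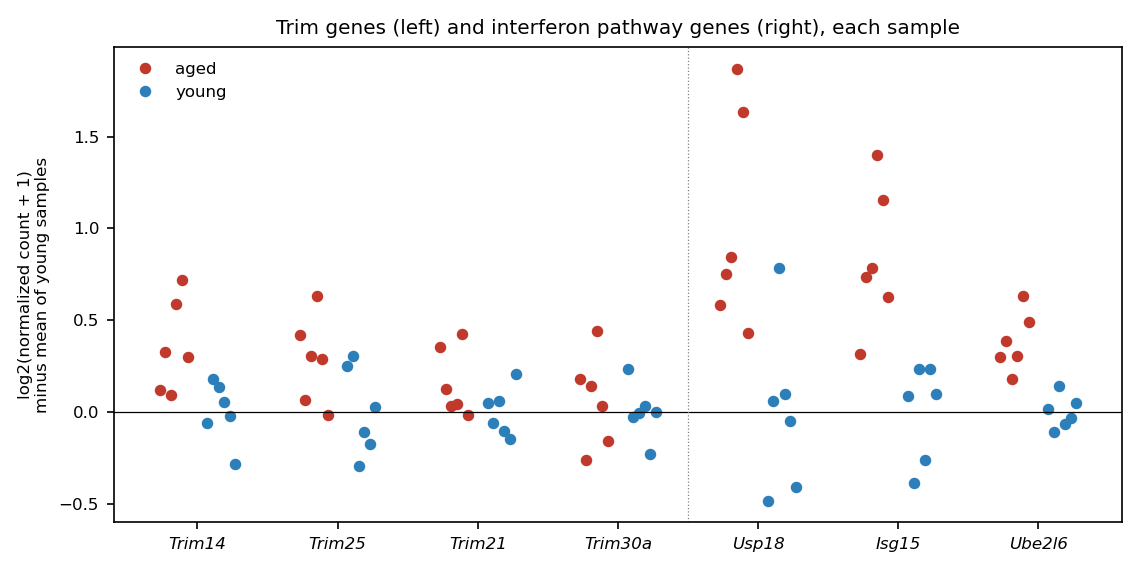
Log2(normalized count + 1) of each sample minus the mean of the young samples for 4 inducible Trim genes and the 3 called interferon pathway genes, aged left of young for each gene (6 samples each). The aged samples spread up from the young ones in Usp18, Isg15 and Ube2l6, and the ages overlap in Trim14, Trim25, Trim21 and Trim30a.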

How the data were processed

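Values were the normalized counts the authors deposited for 12 samples, a non-negative signal in each of 24015 rows. Per the series' design text, STAR aligned the reads, samtools gave the count matrix and DESeq2 ran the authors' own comparison. How the values were normalized is not described there. The submitters' processing notes name mm10 as build. For tool versions and gene annotation, the sources used here give nothing. Libraries were SmartSeq v4 and Nextera XT, without strand, per the labels' protocols. In 8 columns 100% of positive values, divided by a fixed step, fell within 0.1 of a whole read. The other 4 (young 2, young 4, aged 3, aged 6) each hold 2 technical replicate libraries, and their reads were not recovered.

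Genes with at least 10 normalized counts in 6 samples were compared on log2(value + 1) with limma 3.58.1 (trend, two-sided, Benjamini-Hochberg over 11579 genes, R 4.3.3). The pseudocount understates fold changes of low genes. Errors of differences are SE. Alternatives used edgeR 4.0.16, DESeq2 1.42.0, other filters, scalings and samples left out. Named genes were all inducible members, the 6 other members with the highest mean, the 6 with the smallest p, called pathway genes and 6 fixed partners. Some genes of the lists are not reported here. The members and lists were chosen with earlier results of these data known. Sample numbers were not used to pair the ages in the main comparison.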

Additional observations from a re-analysis of the deposited data

Results flagged for a closer look

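Of 92 groups of 6 samples given Dixon's test at its 95% critical value, 5 held a sample far from the others, where chance alone gives about 1 in 20. In the aged group, aged 6 stood apart in 3 genes. Its Trim47 value was 4594 normalized counts, against 3534 to 3637 in the other aged samples. Its Trim41 value was 125, against 50.3 to 76.1 in the other aged samples, and its Trim24 value was 293, against 396 to 444. In the young group, Trim23 in young 4 was 492, against 625 to 700 in the other young samples, and Usp18 in young 3 was 368, against 152 to 229.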

How the results depend on the processing

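In 24 alternatives the number of Trim genes called higher was 0 except for 1 (Trim14) with DESeq2 on 8 samples. The number called lower was 0 except in 2 of them, with 1 (Trim47) without aged 5 and aged 6 and 1 (Trim47) without aged 6 alone. Leaving out each sample in turn gave 0 to 0 called higher and 0 to 1 called lower (1 without aged 6). The 3 interferon pathway calls became 0 with no filter, 0 with quantile normalization, 0 with limma and 0 with edgeR on 8 samples, and 0 without aged 5 and aged 6. They were 2 with DESeq2 on the same 8 samples and 2 with limma's robust option. With a pseudocount of 0.5 or 5, a filter at 50 or TMM rescaling, 3 were called. Leaving out each sample gave 0 to 3, and none fell in any alternative. The cause was not tested, beyond fewer samples where samples were left out. With the sample number as a replicate block, 0 Trim genes and 1 pathway gene were called and the smallest Trim adjusted p was 0.194 (Trim14). Correlations of same-numbered samples were -0.12 to 0.11. They were not compared with those of samples with unlike numbers, so they do not settle whether the numbers pair samples.

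Log2 differences near 0 changed sign. Trim12a was -0.011, Trim8 0.028, Trim35 -0.028 and Trim36 0.0059 without aged 5 and aged 6, and on 8 samples Trim8 was 0.050 with limma, 0.043 with edgeR and 0.043 with DESeq2. Leaving out each sample in turn gave -0.0066 to 0.095 for Trim12a, -0.015 to 0.13 for Trim30a, -0.065 to 0.025 for Trim8, -0.032 to 0.035 for Trim35, -0.10 to 0.0087 for Trim28, -0.091 to 0.040 for Trim36 and -0.024 to 0.074 for Setdb1. Counts over all tested genes were 147 higher and 53 lower, 67 and 11 with limma on 8 samples, 75 and 15 with edgeR, 185 and 50 with DESeq2, 115 and 30 with the replicate block, and the number lower was 27 to 60 with 1 sample left out. Scaling moved the median of all genes by less than 0.1. Depth was lowest in young 1, and counts below about 10 rest on few reads.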
